A study of Mus musculus with 4 samples.

Results

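The genes described here encode glycoproteins and proteoglycans of the extracellular matrix, together with the lysyl oxidases that crosslink it. They were a fixed list of 45 gene symbols, of which 41 had a probe set carrying that symbol alone among the 12393 genes measured. Efemp2, Fbn1, Spp1 and Loxl2 were not analysed here. Each gene was represented by its probe set with the highest mean log2 signal over all 4 arrays. The cells came from back skin of K14-GFP-actin mice at postnatal day 49, in which the keratin 14 promoter, active in basal keratinocytes, drives a fusion of GFP and actin. All 4 samples share this genotype, tissue and age. The 2 total samples were living GFP-positive cells without further selection, called total epidermis in their titles. The 2 bulge samples were living GFP-positive cells with high α6 integrin and high CD34, the markers that select bulge basal cells of resting (telogen) follicles. Bulge cells were not removed from the total sort, so it is a mixed population and not a bulge-free control. The labels do not say whether replicates are separate animals. The p-values thus cover only the spread of these samples, part or all of which may be technical.

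Matrix glycoproteins are secreted multidomain proteins that link collagens, basement membranes and cell surface receptors to each other. Laminins, nidogens, perlecan and agrin build the basement membrane on which basal keratinocytes sit. Fibulins, fibrillins and elastin form elastic fibres, and small leucine-rich proteoglycans bind collagen fibrils. Matricellular proteins such as periostin, tenascin-C, SPARC and thrombospondins modulate adhesion and growth factor signalling more than they bear load. In the hair follicle, bulge cells are known to deposit a basement membrane of their own, in which nephronectin anchors the arrector pili muscle.

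Against the whole epithelium, bulge cells had higher signal for Sparc (6.07-fold) and Fbln1 (5.35-fold) and lower signal for Smoc2 (7.16-fold) and Efemp1 (13.0-fold). These 4 genes passed the limma fit with an intensity trend at an adjusted p of 0.05, and rose and fell below refer to that fit alone. It was set as a second test when the fit on group alone was already known to call no gene. Among the members the trended fit called 2 higher and 2 lower, 9.76% of 41, where over all genes it called 1.08%, with 0.557% higher and 0.524% lower. The plainer limma fit on group alone, the principal test, called 0 of the 41 and 0 of all genes, with 9 members higher and 4 lower at an unadjusted p under 0.05. Over all genes, 5.18% were higher and 5.29% lower at that level. With 1 array left out, the error came only from the pair left intact, and bulge replicates spread more than total replicates. The number of trended calls then depended on which pair was intact, so it does not show which arrays the calls rested on. After quantile normalization, of the 4 only Smoc2 passed.

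Upstream sequences of Sparc, Fbln1 and Efemp1, 3 of the 4 called genes, are shown because these genes carry the main differences; that of Smoc2 is not shown. They come from RefSeq (build GRCm38.p6), run 5′ to 3′ on the gene's strand and end at the base before the outermost annotated start. Capitals mark matches to 6 short motifs searched on both strands.
Sparc, chr11:55420081-55420330, minus strand: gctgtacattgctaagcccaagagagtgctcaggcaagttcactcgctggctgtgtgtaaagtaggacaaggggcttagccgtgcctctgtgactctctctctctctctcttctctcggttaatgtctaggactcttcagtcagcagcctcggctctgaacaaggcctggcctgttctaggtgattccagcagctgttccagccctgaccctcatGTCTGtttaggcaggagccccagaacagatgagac
Fbln1, chr15:85205699-85205948, plus strand: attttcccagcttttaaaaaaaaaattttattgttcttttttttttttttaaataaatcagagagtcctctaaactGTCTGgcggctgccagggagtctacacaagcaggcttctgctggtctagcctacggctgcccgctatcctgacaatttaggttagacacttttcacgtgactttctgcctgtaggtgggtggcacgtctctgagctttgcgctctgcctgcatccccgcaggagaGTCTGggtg
Efemp1, chr11:28852955-28853153, plus strand: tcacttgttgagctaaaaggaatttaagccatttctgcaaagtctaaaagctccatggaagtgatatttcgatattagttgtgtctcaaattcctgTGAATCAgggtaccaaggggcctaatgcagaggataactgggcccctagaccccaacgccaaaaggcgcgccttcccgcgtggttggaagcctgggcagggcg

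The motifs were the TATA box (TATAAA), the AP-1 site (TGANTCA), a SMAD element (CAGAC), a TEAD element (GGAATG), a RUNX element (TGTGGT) and a LIM homeobox element (TAATTA). The SMAD letters matched at 1 place before Sparc and at 2 before Fbln1, each in its reverse complement. Before Efemp1 the only match was 1 to the AP-1 letters, with A at the open base written N, and no matches overlapped. The stretch before Efemp1 is shorter, 199 bases, because its table entry begins closer to that start. Over the 250 bases before the first start in the table, the SMAD letters were in 10 of the 22 members with an entry and in 42.2% of 27025 genes, so a match is common. The AP-1 letters were in 2 of 22 members, Efemp1 and Ecm1, against 6.85% of all genes. The TATA letters were in 5 members (Aspn, Ecm1, Ogn, Thbs2 and Tnc) against 13.0%. The TEAD letters were in 3 against 12.6%, the RUNX letters in 1 against 14.2% and the LIM homeobox letters in 0 against 4.91%.

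All values are array signals on a linear scale, as deposited, and differences are bulge minus total on the log2 scale with n = 2 arrays in each group. The arrays had a common trimmed mean of 500.0, and their number limits the precision. A background level of 150.0 was set from 67 chemosensory receptor genes. A gene not above it on an array of the dimmer group is given a fold of at least N, a bound that leaves out sampling error. Cd34, a gene of the gate, had signals of 844 and 1144 in total epidermis, and 15697 and 14034 in bulge cells. Itga6, which encodes the α6 integrin of the gate, went the other way with 5642 and 3491 in total epidermis, and 3312 and 1693 in bulge cells, and Krt14 had 16819.9 and 25125 in total epidermis, and 17045 and 16253 in bulge cells. These genes selected the cells and only check the labels. In bulk samples, fewer cells of a type and less RNA per cell cannot be told apart.

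Over all genes, 18.0% had both bulge arrays above both total arrays and 20.5% had both below. Counts without overlap here and below stand beside these shares, and in short lists a count near them says little. Leukocyte markers were lower on the bulge arrays, with 13 of 15 below both total arrays and summed signals of 12924 and 14731 in total epidermis, and 1509 and 2031 in bulge cells. The trended fit called 5 of these 15 lower, against 0.524% of all genes. Melanocyte markers had 6 of 8 lower and 2 higher without overlap. Their summed signals were 3009.9 and 2219 in total epidermis, and 7252 and 3491 in bulge cells, of which Mitf alone had 985 and 379 in total epidermis, and 6125 and 2459.8 in bulge cells. For fibroblast and dermal papilla markers, cells known for making many of these matrix genes, 13 of 19 were not above background on any array and 3 were higher and 5 lower without overlap. Their summed signals were 2341 and 2629 in total epidermis, and 5166 and 2721 in bulge cells. Pdgfra and Col3a1 were below background on all 4 arrays, at 9.48 and 14.6 and at 22.4 and 41.6 on the bulge arrays. The collagen I gene Col1a2, in contrast, had 343 and 286 in total epidermis, and 3852 and 1541 in bulge cells, with a difference that did not pass (trended limma, adjusted p = 0.0629). Thy1 of the same list went the other way, with 877 and 1444 in total epidermis, and 131 and 294 in bulge cells. It did not overlap and did not pass either (trended limma, adjusted p = 0.0981). Endothelial markers had 9 of 11 not above background on any array, with summed signals of 894 and 556 in total epidermis, and 848 and 696 in bulge cells. Pericyte and smooth muscle markers had 6 of 9, with 1 higher and 2 lower without overlap and summed signals of 3185 and 2118 in total epidermis, and 867 and 839 in bulge cells. The larger part of the total sums was Notch3, which fell from 2530.3 and 1548 to 280.3 and 275 (trended limma, adjusted p = 0.0381). The smooth muscle actin gene Acta2 overlapped, with 262 and 273 in total epidermis, and 246 and 266 in bulge cells. Of 5 Schwann cell markers, 1 was higher and 2 lower without overlap, and Egr2 fell from 2437 and 2303 to 193 and 314. The higher one, Pmp22, had 1278 and 757 in total epidermis, and 3201 and 1705 in bulge cells, without passing (trended limma, adjusted p = 0.379). Of 10 keratinocyte markers, 3 were higher and 1 lower, the latter being Krt1, a keratin of differentiating cells, which fell from 8379 and 9221 to 699 and 1118. The part of these cell types in the differences below was not tested.

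**Figure D1:**
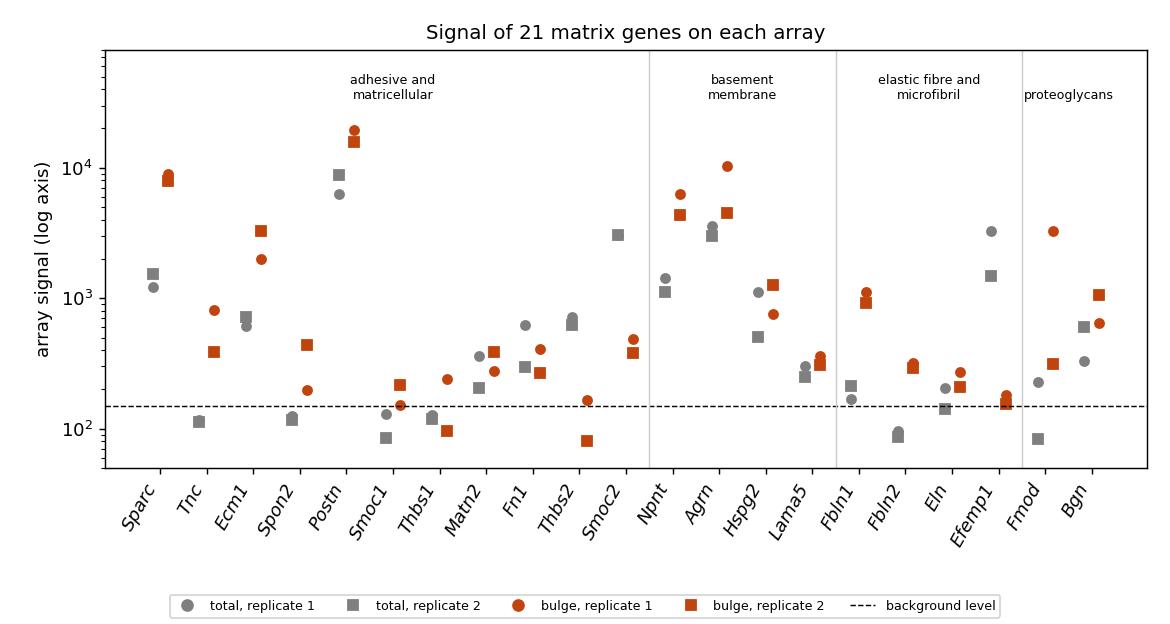
Signal on each of the 4 arrays (log axis) for the 21 matrix genes with a group mean above background (dashed line), ordered by role. Grey symbols are the total arrays and orange the bulge arrays. Sparc, Npnt, Ecm1 and Fbln1 have both bulge arrays above both total arrays, Smoc2, Efemp1 and Thbs2 both below, and the bulge arrays of Fmod lie far apart at 3255 and 314.

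Adhesive and matricellular glycoproteins included the brightest member, Postn. Of 14 measured, 1 rose, 1 fell and 12 did not pass, and 7 were higher and 3 lower without overlap of the groups. With a group mean above background, 6 were higher and 2 lower without overlap. Sparc encodes a calcium-binding matricellular protein that binds collagen. Its signals were 1224 and 1546 in total epidermis, and 8890.2 and 7851 in bulge cells. Both bulge arrays lay well above both total arrays, and the replicates were close within each group. On the log2 scale this was 10.43 ± 0.24 (SD, n = 2) for total epidermis and 13.03 ± 0.13 (SD, n = 2) for bulge cells, a rise of 2.60 ± 0.34 (SE; 95% interval 1.77 to 3.44). Trended limma gave it an adjusted p = 0.0387, and limma on group alone 0.0982. Its other probe set gave 2.99.

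Smoc2 encodes a secreted modular calcium-binding protein related to SPARC. It moved the other way, with signals of 3050.3 and 3066 in total epidermis, and 483 and 377 in bulge cells. The total arrays were almost equal and both bulge arrays were far below them. The log2 signals were 11.58 ± 0.01 (SD, n = 2) for total epidermis and 8.74 ± 0.25 (SD, n = 2) for bulge cells, a difference of -2.84 ± 0.33 (SE; 95% interval -3.63 to -2.05). Trended limma gave it an adjusted p = 0.0297, and limma on group alone 0.0882. Its other probe set gave -1.77, with 174 and 206 in total epidermis, and 47.4 and 65.3 in bulge cells, the latter below background. The remaining SPARC relatives among the members were dim: Smoc1 had 131 and 85.4 in total epidermis, and 152 and 217 in bulge cells, and Sparcl1 was below background on every array. Smoc1 did not overlap between the groups, but its difference of 0.78 did not pass (trended limma, adjusted p = 0.668).

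Postn encodes periostin, which binds integrins and collagen. Its signals were 6336 and 8782 in total epidermis, and 19385 and 15633 in bulge cells, a difference of 1.22 ± 0.41 (SE) without overlap that did not pass (trended limma, adjusted p = 0.326). Ecm1 encodes a secreted glycoprotein that binds perlecan. It had 612 and 712 in total epidermis, and 1986 and 3259 in bulge cells, 3.85-fold more in the bulge group (difference 1.95 ± 0.38, SE, trended limma, adjusted p = 0.0886). Tnc encodes tenascin-C, an anti-adhesive hexameric glycoprotein. It was below background on both total arrays at 116 and 114 and reached 812 and 387 on the bulge arrays, at least 3.74-fold more (trended limma, adjusted p = 0.100). All of these had both bulge arrays above both total arrays, and none passed the test with 4 arrays.

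Thbs2 encodes thrombospondin 2, an inhibitor of angiogenesis. Its signals were 719 and 619 in total epidermis, and 166 and 81.0 in bulge cells, at least 4.22-fold less in the bulge group, with a difference of -2.52 ± 0.46 (SE) that did not pass (trended limma, adjusted p = 0.0761). The other Thbs2 probe set gave -2.14. Run over only the 7249 genes with a group mean above background, the limma fit on group alone called 3.06%, Thbs2 among them. Thbs2 entered that set through its total mean alone (log2 9.38, against 6.86 in bulge cells), so this call adds no support. Its relative Thbs1 overlapped between the groups, with 128 and 119 in total epidermis, and 241 and 96.3 in bulge cells. Spon2, a member of the spondin family of secreted proteins, was below background on the total arrays (125 and 116) and had 199 and 435 on the bulge arrays, at least 1.96-fold more without passing.

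Fibronectin and matrilin 2, general adhesive proteins of the matrix, overlapped between the groups. Fn1 had 621 and 299.5 in total epidermis, and 411 and 268 in bulge cells, with a difference of -0.38 (95% interval -1.53 to 0.78). Matn2 had 364 and 207 in total epidermis, and 278 and 384 in bulge cells, with a difference of 0.25 (95% interval -0.79 to 1.30). These intervals leave room for a change of more than 1.5-fold in either direction. Spon1 and Mgp, the latter encoding an inhibitor of calcification, were below background on all 4 arrays.

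**Figure D2:**
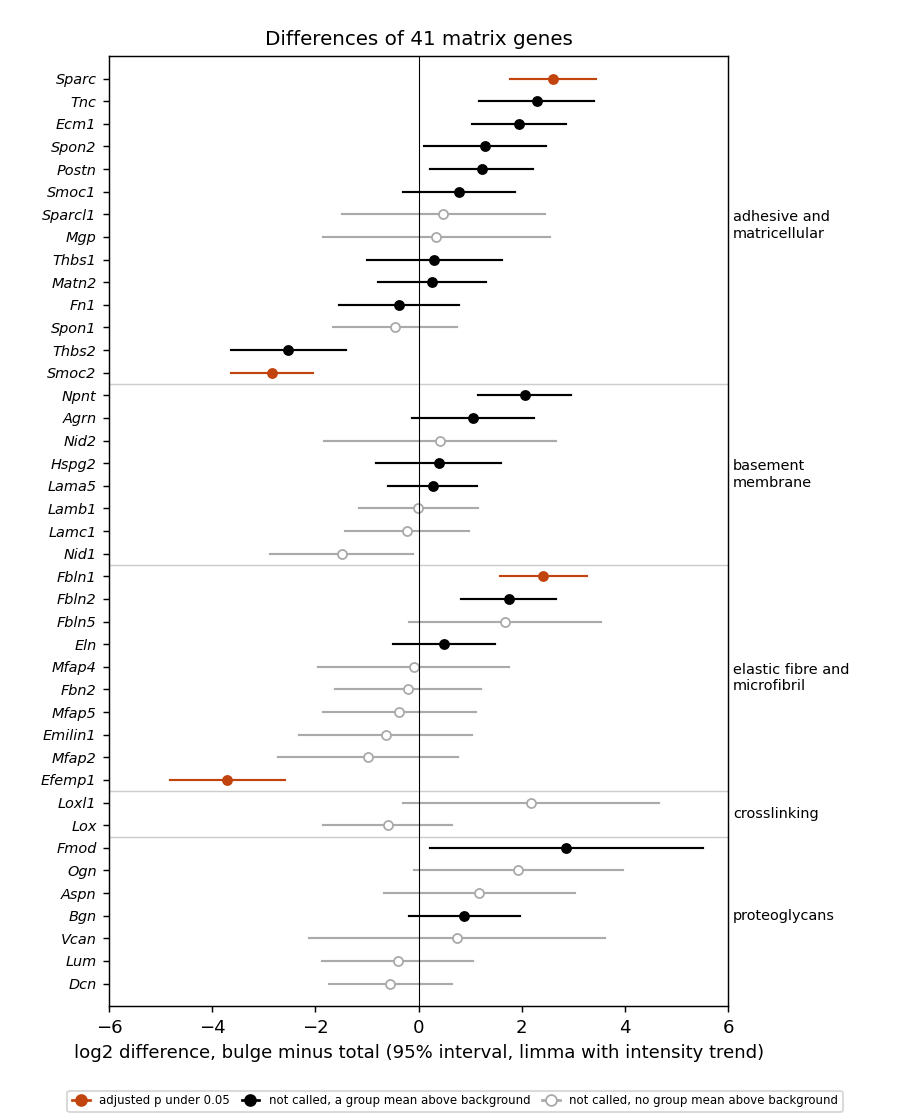
Log2 difference, bulge minus total, of each of the 41 matrix genes with its 95% interval from the limma fit with an intensity trend, grouped by role. Orange genes passed an adjusted p of 0.05 (Sparc and Fbln1 higher, Smoc2 and Efemp1 lower), and open grey symbols mark genes with no group mean above background.

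Basement membrane genes included no called member (0 of 8), with 3 higher and 1 lower without overlap. The lower one, Nid1, was below background on all 4 arrays. Npnt encodes nephronectin, a ligand of the α8β1 integrin and a known product of bulge cells. Its signals were 1428 and 1119 in total epidermis, and 6348 and 4348 in bulge cells, 4.16-fold more in the bulge group, with a difference of 2.06 ± 0.37 (SE; 95% interval 1.16 to 2.95); trended limma left it at an adjusted p = 0.0748. The groups were well separated, and this was the member nearest to the threshold among those that missed it. Of its 4 other probe sets, those above background on an array gave 1.84 and 0.23, and those below it 0.84 and 0.71. The gene of its receptor chain, Itga8, stayed below background with 29.9 and 21.8 in total epidermis, and 33.1 and 21.7 in bulge cells.

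Agrn encodes agrin, a heparan sulphate proteoglycan of basement membranes. Its signals were 3576 and 2984 in total epidermis, and 10275 and 4485 in bulge cells, and the bulge replicates differed 2.29-fold from each other. The difference of 1.06 (95% interval -0.12 to 2.23) did not pass. Perlecan, encoded by Hspg2, overlapped between the groups with 1119 and 500.2 in total epidermis, and 763 and 1256 in bulge cells. The laminin α5 chain gene Lama5 had 302 and 251 in total epidermis, and 362 and 306 in bulge cells, without overlap but with a difference of only 0.28 (95% interval -0.58 to 1.13). The laminin genes Lamb1 and Lamc1 lay near or below background and overlapped, with differences of 0.00 and -0.23. The nidogen genes Nid1 and Nid2, whose products join laminin to collagen IV, were below background on all 4 arrays.

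Elastic fibre and microfibril genes split within the fibulin family. Of 10 measured, 1 rose, 1 fell and 8 missed the threshold, while 4 were higher and 2 lower without overlap and 6 were below background on all arrays. With a group mean above background, 3 were higher and 1 lower without overlap. Fbln1 encodes fibulin 1, which binds fibronectin, elastin and basement membrane proteins. Its signals were 168 and 211 in total epidermis, and 1117 and 912 in bulge cells. The total arrays were just above background and the bulge arrays several times higher. The log2 signals were 7.56 ± 0.23 (SD, n = 2) for total epidermis and 9.98 ± 0.21 (SD, n = 2) for bulge cells, a rise of 2.42 ± 0.35 (SE; 95% interval 1.58 to 3.26). Trended limma gave it an adjusted p = 0.0442, and limma on group alone 0.108. Its other probe set gave 3.11.

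Efemp1 encodes a fibulin with EGF-like repeats and had the largest fall among the 41. Its signals were 3248 and 1475 in total epidermis, and 183 and 154 in bulge cells. The total replicates differed 2.20-fold, yet both were far above the bulge arrays, which lay just over background. The log2 signals were 11.10 ± 0.80 (SD, n = 2) for total epidermis and 7.39 ± 0.17 (SD, n = 2) for bulge cells, a difference of -3.71 ± 0.46 (SE; 95% interval -4.81 to -2.60). Trended limma gave it an adjusted p = 0.0339, and limma on group alone 0.0882. Only 1 probe set measured it.

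Fbln2, which encodes a fibulin of basement membranes and elastic fibres, was below background on the total arrays (96.7 and 86.2) and had 317 and 294 on the bulge arrays. This was at least 2.04-fold more, and it did not pass (trended limma, adjusted p = 0.117). Fbln5, whose product assembles elastic fibres, stayed below background with 38.2 and 11.6 in total epidermis, and 98.8 and 45.6 in bulge cells. Elastin itself, Eln, had 205 and 141 in total epidermis, and 273 and 209 in bulge cells and a difference of 0.49 (95% interval -0.50 to 1.48). The microfibril genes Fbn2, Emilin1, Mfap2, Mfap4 and Mfap5 were below background on all 4 arrays. The lysyl oxidase genes stayed below background on every array as well: Lox had 130.3 and 98.3 in total epidermis, and 105 and 53.1 in bulge cells, and Loxl1 had 18.1 and 5.73 in total epidermis, and 19.1 and 111 in bulge cells.

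**Figure D3:**
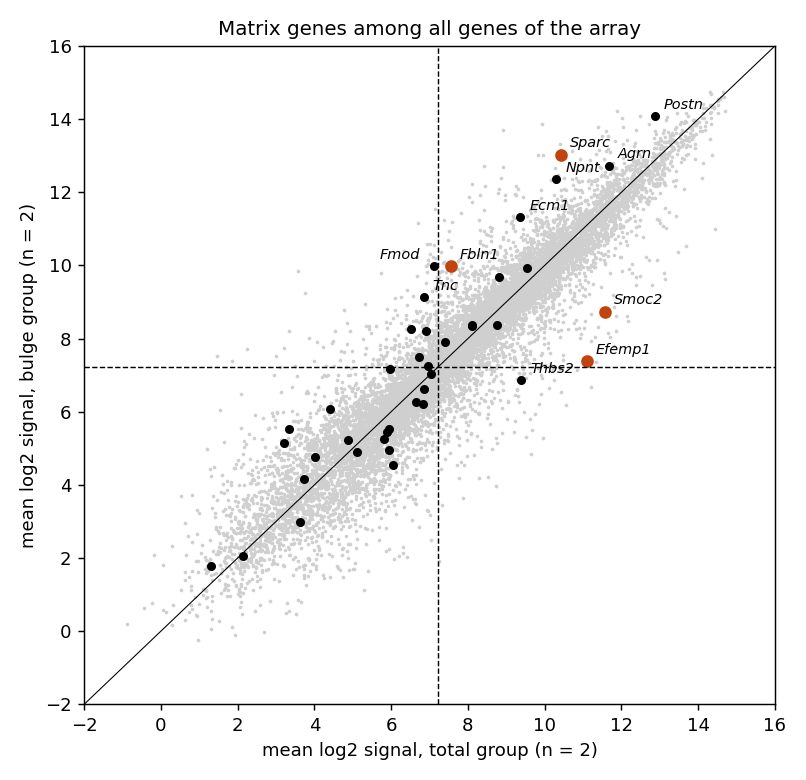
Mean log2 signal in the bulge group against the total group (n = 2 arrays each) for all 12393 genes (grey), the 41 matrix genes (black) and the 4 that passed the trended fit (orange). Dashed lines mark the background level and the solid line equal signal. Smoc2 and Efemp1 lie below the line and Sparc and Fbln1 above it.

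Small leucine-rich proteoglycans were mostly dim. Of 7 genes with versican, 0 passed, 3 were higher and 1 lower without overlap, and 4 were below background on all arrays. With a group mean above background, 2 were higher and 0 lower without overlap. Fmod encodes fibromodulin, which binds collagen fibrils and TGF-β. It had the widest replicate spread of the members above background, with 229.6 and 83.7 in total epidermis, and 3255 and 314 in bulge cells. The bulge arrays differed 10.4-fold, so although both were above both total arrays, at least 5.45-fold in the mean, the difference of 2.87 ± 1.09 (SE) did not pass (trended limma, adjusted p = 0.402). All 6 Fmod probe sets gave a positive difference, from 2.54 to 4.61, and each had its higher bulge signal on replicate 1. Col1a2 also had its higher bulge signal on replicate 1, and its part in this spread was not tested.

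Biglycan, encoded by Bgn, had signals of 331 and 599 in total epidermis, and 644 and 1056 in bulge cells. The groups did not overlap, but the lower bulge array was close to the higher total array, and the difference of 0.89 (95% interval -0.20 to 1.97) did not pass. Aspn, which encodes asporin, was above background on bulge replicate 1 alone, with 83.1 and 48.0 in total epidermis, and 296 and 68.9 in bulge cells. Its other probe set gave 2.01 without overlap, with 66.9 and 31.5 in total epidermis, and 236 and 145 in bulge cells. Dcn and Lum, which encode decorin and lumican, the abundant proteoglycans of dermal fibroblasts, were below background everywhere, with 53.2 and 59.1 in total epidermis, and 42.4 and 34.5 in bulge cells for Dcn and 92.9 and 40.4 in total epidermis, and 56.8 and 37.5 in bulge cells for Lum. Ogn and the versican gene Vcan were below background as well.

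Where a gene had more than 1 probe set above background on at least 1 array, those probe sets went the same way. This held for 10 of 10 such members, although sizes differed: the Npnt probe sets ranged from 0.23 to 2.06.

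**Figure D4:**
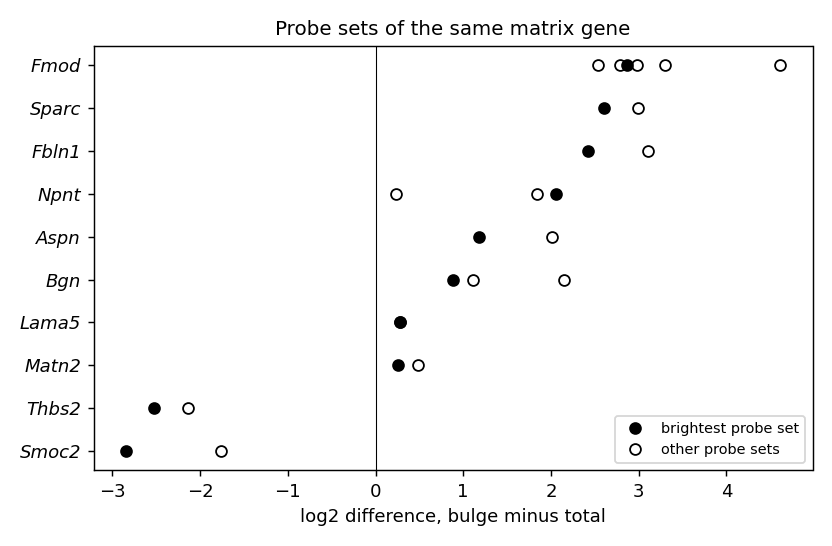
Log2 difference, bulge minus total, of each probe set above background on at least 1 array, for the 10 matrix genes with more than 1 such probe set. Filled circles are the brightest probe set, which represents the gene, and open circles the others. Thbs2 and Smoc2 lie below 0 with both probe sets and the other 8 genes above 0 with all of theirs.

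Across all 41 genes, 18 (43.9%) had both bulge arrays above both total arrays, against 18.0% of all genes, and 7 (17.1%) had both below, against 20.5%. These counts include genes below background on every array. Among the 21 members with a group mean above background, 14 were higher and 3 lower without overlap. Over the 7249 genes with such a mean, 20.7% were higher and 22.0% lower. The median difference of the 41 was 0.39 (quartiles -0.38 and 1.28), and over all genes it was -0.02 (quartiles -0.41 and 0.38). When values below background were set to it, both medians were 0. The list was chosen with results of these arrays known, so these counts describe it and carry no test. Replicates of the members with a group mean above background differed with an SD of 0.97 (log2) in the bulge group and 0.59 in the total group, and 15 of these 21 were higher on bulge replicate 1 than on replicate 2, as were 15 on total replicate 1. Over the 7249 genes with a group mean above background, these counts were 3650 and 3891, and the SDs were similar at 0.92 in the bulge group and 0.55 in the total group.

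Other genes of the matrix were taken from 4 further lists with 92 measured genes. Of 42 other matrix glycoproteins and matrix-associated secreted proteins, 5 rose and 0 fell in the trended fit, with 17 higher and 5 lower without overlap. Over all genes that fit called 0.557% higher and 0.524% lower, and 18.0% were higher and 20.5% lower without overlap. The latent TGF-β binding protein gene Ltbp2 had 206 and 97.5 in total epidermis, and 3907 and 2286 in bulge cells (at least 17.0-fold more). Pcolce2, an enhancer of procollagen processing, had 91.8 and 118 in total epidermis, and 2028 and 2547 in bulge cells (at least 15.2-fold), and the follistatin-like gene Fstl1 had 141 and 198 in total epidermis, and 2889 and 2034 in bulge cells (at least 14.1-fold). Mfge8, which encodes a secreted integrin ligand, rose 5.44-fold from 586 and 803 to 3213 and 4331. Egfl6, which encodes an EGF-like matrix protein that binds α8 integrin, rose 4.55-fold from 218 and 249 to 1152 and 978, close to the threshold (trended limma, adjusted p = 0.0479). With 1 array left out, the number of these other matrix genes called again depended on which pair of arrays stayed intact.

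The remaining lists had no called member. Of 20 other proteoglycans, 3 were higher and 4 lower without overlap, and the brightest, the syndecan genes Sdc4 and Sdc1, had differences of 0.34 and 0.55. Of 10 other crosslinking and collagen-modifying enzymes, 4 were higher and 1 lower, with P4hb, a subunit of prolyl hydroxylase, at 0.30 and the collagen chaperone gene Serpinh1 at 0.54. Of 20 matrix receptors, 5 were higher and 3 lower. The brightest receptors were Cd44, a receptor for hyaluronan, with 10107 and 10496 in total epidermis, and 7704 and 3359 in bulge cells, and Ddr1, a collagen receptor, with 6290.5 and 6826 in total epidermis, and 6928 and 4685 in bulge cells. Median differences were 0.41 for other matrix glycoproteins, -0.10 for other proteoglycans, -0.01 for the enzymes and 0.08 for receptors.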

How the data were processed

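RNA was reverse transcribed and amplified from 200 ng with oligo-dT T7 priming, per the labels' protocols, and labelled cRNA was read on 4 Affymetrix arrays, 1 per sample. The authors deposited probe set intensity on a linear scale, scaled to a common mean after trimming 2% at each end. Which tool made the values is open: GCOS, RMA, R 2.15.1 and affy 1.36 stand in the submitters' processing notes with no role. The values are not on the log2 scale of RMA output. Titles gave the groups, as all 4 samples carry 1 cell type label.

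Of 22690 probe sets, 20380 had 1 gene symbol in the platform annotation, 691 had several and 1555 had none besides 64 controls. Symbols were updated by Entrez ID from a RefSeq table of GRCm38.p6 for 20351. Signals were log2 transformed and tested with limma 3.58.1 (R 4.3.3), lmFit and eBayes, as two-sided tests adjusted by Benjamini-Hochberg over the 12393 genes, on group alone (principal) and with an intensity trend. Both fits were run on simulated data with independent noise on each array, where only the direction of the largest simulated effects was required to be right. That run does not test the calls given here. The background level was the 95th percentile of 67 olfactory, vomeronasal and taste receptor genes, and a bound is the bright group's mean over the dim group's mean with each dim array raised to that level. The members, the lists and the trended fit as second test were chosen with earlier results of these data known. Arrays were given in full for members that passed, members above background without overlap and the 2 brightest of each role, and for other lists the called genes or the 2 brightest; the few others named were chosen after their values were seen. Alternatives were centring, quantile normalization, log2 of signal plus 32, 2 filters on dim genes, 2 probe set rules, a replicate block, robust variance, treat at 1.5-fold, and each array left out.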

Additional observations from a re-analysis of the deposited data

How the results depend on the processing

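The directions of Sparc, Fbln1, Smoc2 and Efemp1 held in every alternative run, with differences in the trended fit of Sparc from 2.43 to 2.99 and called in 10 of 14, Fbln1 from 2.24 to 3.11 and called in 8 of 14, Smoc2 from -3.02 to -2.30 and called in 11 of 14, and Efemp1 from -4.28 to -3.14 and called in 10 of 14. The 4 members called by the trended fit became 1 (Smoc2) after quantile normalization, 0 against a 1.5-fold change, and 0 to 8 with 1 array left out, where 0 came without either total array. The fit on group alone called 0 members, 1 (Smoc2) with log2 of signal plus 32, 5 and 4 under the weaker and the stricter filter on dim genes, which test fewer genes, and 4 with the intensity trend. The other matrix genes called, 5 in the trended fit, numbered 3 after centring, quantile normalization, log2 of signal plus 32, the probe set with the largest SD, robust variance or treat, 0 under the stricter filter, and 0 to 9 with 1 array left out. This result's alternatives were chosen after seeing the data. The members' median difference of 0.39 was 0.89 under either filter and 0.14 to 0.66 with 1 array left out. Members higher without overlap numbered 8 under the stricter filter, those lower 3 and 2 under the filters and 8 to 16 with 1 array left out, where a lone array overlaps less often by construction. Eln turned to -0.37 with the probe set of largest SD, which is below background. With 1 array left out, the spread came from the intact pair and the lone array was assumed to vary like it.

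Replicate numbers are shared by the groups but no label says what they mean. Differences between replicates 1 and 2 correlated at 0.579 between the groups over 7249 genes with a group mean above background, and 2 pairs cannot settle a pairing. With the replicate number as a block, the trended fit called 10 members (Ecm1, Fbln2, Fmod, Npnt, Thbs2 and Tnc besides the 4) and 18 other matrix genes, where it called 7.4% of all genes, and the fit on group alone called 0. Signal over background limits the dim members: 18 of 41 were not above it on any array.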

Other observations

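The latent TGF-β binding protein genes were all higher on the bulge arrays without overlap, a group singled out after its values were seen. Besides Ltbp2, Ltbp1 had 68.4 and 50.7 in total epidermis, and 359.6 and 276 in bulge cells, Ltbp3 had 3324 and 3133 in total epidermis, and 11178 and 7782 in bulge cells and Ltbp4 had 257 and 154 in total epidermis, and 385 and 269 in bulge cells. Of these 4 genes only Ltbp2 passed the trended limma fit, and adjusted p-values of the others were 0.0698 for Ltbp1, 0.154 for Ltbp3 and 0.708 for Ltbp4. The CCN family gene Ccn2, which encodes connective tissue growth factor, had 4843 and 2981 in total epidermis, and 22723 and 16236 in bulge cells (trended limma, adjusted p = 0.0818), while its relative Ccn1 overlapped, with 1539 and 7219 in total epidermis, and 6422 and 5189 in bulge cells.

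A few cell surface proteoglycan genes were also singled out after their values were seen. The chondroitin sulphate proteoglycan gene Cspg4 had 1389 and 957 in total epidermis, and 8268 and 3177 in bulge cells, and the glypican gene Gpc6 had 138 and 114 in total epidermis, and 777 and 355 in bulge cells. The glypican gene Gpc4 had 4330.3 and 4262 in total epidermis, and 3843 and 2533 in bulge cells. None of them passed (adjusted p of 0.154, 0.137 and 0.806 by trended limma). Of the laminin chain genes of basal keratinocytes, Lamb3 had 2619 and 2212 in total epidermis, and 5413 and 4805 in bulge cells, and Lama3 overlapped with 2196 and 2298 in total epidermis, and 3849.5 and 1167 in bulge cells. Igfbp7, a secreted matrix-associated protein gene, had 1343 and 2787 in total epidermis, and 7676 and 7843 in bulge cells and did not pass (trended limma, adjusted p = 0.125).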
